A study of Mus musculus with 6 samples.

Results

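The 10 genes described here encode enzymes that build triglyceride and proteins that coat, enlarge or break down the lipid droplets that store it: Gpam, Lpin1, Dgat1, Dgat2, Plin2, Cideb, Cidec, Hsd17b13, Pnpla2 and G0s2. They were chosen by name, and every probe set with a single gene symbol matching 1 of them was taken, which gave 14 probe sets for the 10 genes out of 12393 genes measured. The arrays came from liver tumours of 6 male mice of the CD-1 background strain: 3 Alb/AEG-1 transgenic mice and 3 wild-type mice. All 6 animals had received the liver carcinogen N-nitrosodiethylamine as 1 intraperitoneal dose when 14 days old (10 µg per g of mouse), and the tumours of both groups were taken at 28 weeks. The transgenic mice carry a construct named Alb/AEG-1 for astrocyte elevated gene-1, which was injected into embryos of C57BL/6 × CBA parentage (B6CBAF1/J). In the published model the albumin promoter drives the transgene in hepatocytes. The number of founder lines and the number of tumours behind each array are not given in the sources used here.

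Hepatocytes make triglyceride by adding fatty acids to glycerol 3-phosphate 1 at a time and removing the phosphate before the last fatty acid is joined. The product is packed into droplets bounded by a phospholipid monolayer, whose protein coat decides how far lipases reach the core. Fat-laden livers generally carry more of several coat proteins, and perilipin 2 is the usual marker of stored lipid in hepatocytes.

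The values are log2 expression levels after robust multi-array averaging (RMA), so a difference of 1 is a doubling, written below as Alb/AEG-1 minus wild type. Array medians lay within 0.03 log2 of each other, and pairs of arrays correlated at Pearson's r of 0.987 to 0.993 over probe sets, which are not independent of each other. Hepatocyte markers were near the top of the scale on all arrays, with a mean of 13.44 to 13.56 in Alb/AEG-1 and 13.45 to 13.53 in wild-type tumours over 9 genes. Mtdh, the mouse gene for AEG-1, was at 9.57, 9.40 and 9.15 in Alb/AEG-1 tumours, against 9.32, 9.03 and 9.16 in wild-type tumours, which overlap. Whether a probe set for mouse Mtdh can detect the transgene is not given in the sources used here, so its level is no check of the genotype labels. The titles give each animal a number, and the numbers fall into a lower range (Alb/AEG-1 replicates 1 and 2, wild-type replicate 1) and a higher range (Alb/AEG-1 replicate 3, wild-type replicates 2 and 3). The labels do not call the range a batch, and each of the 10 genes is given within each range as well, by at least 1 probe set. Fewer cells of a type and less RNA per cell cannot be told apart in whole tumour RNA.

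For the genes with the largest differences in each direction, the 250 bases before the start of the RefSeq transcript are shown here, so that the base sequence beside these genes can be read with their values. They are given 5′ to 3′ on the strand of the gene in build GRCm38.p6, Hsd17b13 at chr5:103977389-103977638, G0s2 at chr1:193273189-193273438 and Lpin1 at chr12:16610967-16611216, all on the minus strand. Capitals mark the half-site of nuclear receptors, AGGTCA or its reverse complement TGACCT.
Hsd17b13: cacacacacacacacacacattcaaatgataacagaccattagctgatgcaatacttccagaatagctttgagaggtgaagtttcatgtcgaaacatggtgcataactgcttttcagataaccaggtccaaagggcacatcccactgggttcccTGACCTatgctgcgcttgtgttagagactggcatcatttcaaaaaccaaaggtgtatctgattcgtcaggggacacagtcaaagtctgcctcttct
G0s2: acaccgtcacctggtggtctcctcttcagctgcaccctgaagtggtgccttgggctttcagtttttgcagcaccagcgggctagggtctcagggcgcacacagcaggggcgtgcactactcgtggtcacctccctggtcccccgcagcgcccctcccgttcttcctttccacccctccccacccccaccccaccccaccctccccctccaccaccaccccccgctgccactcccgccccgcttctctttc
Lpin1: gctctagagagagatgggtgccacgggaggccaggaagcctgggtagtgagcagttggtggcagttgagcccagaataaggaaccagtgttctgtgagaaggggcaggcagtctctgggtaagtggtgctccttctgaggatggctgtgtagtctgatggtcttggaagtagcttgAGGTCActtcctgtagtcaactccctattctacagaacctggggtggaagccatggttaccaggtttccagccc

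The half-site was found 96 to 91 bases before the Hsd17b13 start and 74 to 69 bases before the Lpin1 start, and these letters are not in the G0s2 window. Windows were read for 8 of the 10 genes, all but Dgat1 and Dgat2, and the half-site was in those of Lpin1, Plin2 and Hsd17b13 and in 1 of the 2 Gpam windows. It was in 14.02% of all 32851 windows of this length, on either strand. The E-box CACGTG, which lipogenic and clock factors bind, was in 0 of the 10 windows of these genes and in 6.02% of all windows. A match is a description of the letters only. The Hsd17b13 and Lpin1 windows both hold the half-site. Whether it bears on their differences, which have opposite signs and passed no adjusted threshold, was not tested.

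None of the triglyceride and droplet genes differed past the threshold. By limma, with p adjusted by Benjamini-Hochberg over the 22626 probe sets, 0 of the 10 genes passed an adjusted p of 0.05 in either direction, against 0.00442% of all probe sets. At an unadjusted p below 0.05 there was 1 gene, Hsd17b13, higher in Alb/AEG-1 tumours, where 8.33% of all genes passed. The groups did not overlap in the same 1 of 10 genes, against 15.1% of all genes. With 10 genes, a single gene is near both shares. The genes split evenly, with 5 differences above 0 and 5 below. Their median difference was 0.05 log2, against -0.01 over all genes.

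**Figure D1:**
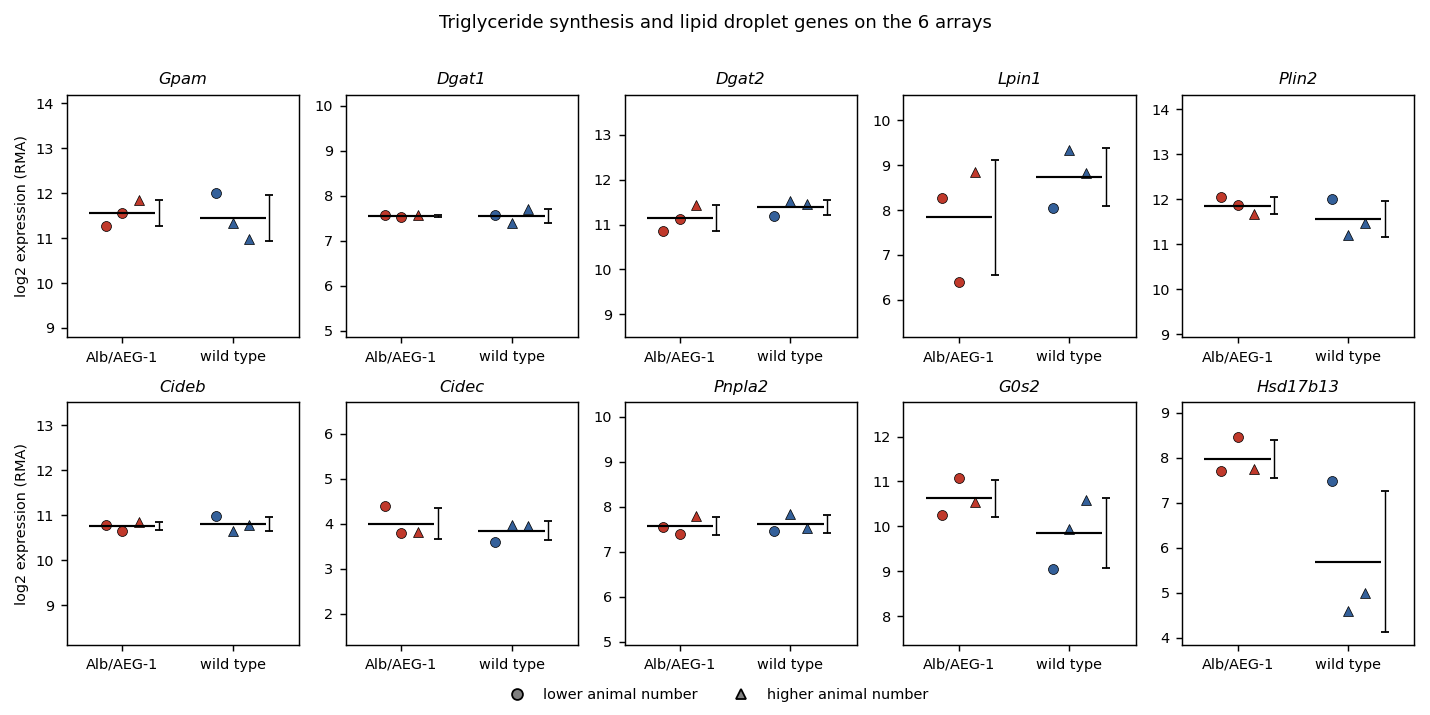
Log2 expression (RMA) of the 10 genes on each array, by the probe set with the highest mean; every panel spans the same number of log2 units. Red points are Alb/AEG-1 and blue points wild-type tumours, circles and triangles mark the lower and higher range of animal numbers, horizontal lines are means and bars the SD (n = 3 each). Hsd17b13 is the panel without overlap, with wild-type replicate 1 at 7.49 close to the Alb/AEG-1 values.

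Hsd17b13 differed most. It encodes a hepatocyte droplet protein of the hydroxysteroid dehydrogenase family, whose human loss-of-function variants are associated with milder fatty liver disease. Its levels were 7.70, 8.47 and 7.76 in Alb/AEG-1 tumours, against 7.49, 4.60 and 4.99 in wild-type tumours. All Alb/AEG-1 arrays lay above all wild-type arrays, but wild-type replicate 1 lay just below the lowest of them and far above the other wild-type arrays. The means were 7.98 ± 0.43 in Alb/AEG-1 and 5.69 ± 1.57 in wild-type tumours (SD, n = 3 each). The difference was 2.28 ± 0.69 log2 (SE), or 4.87-fold, with a 95% interval of 0.68 to 3.89 and an adjusted p of 0.596 by limma. This difference exceeded that of 99.94% of all genes in size, and its within-group SD exceeded that of 99.73%.

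The size of the Hsd17b13 difference turned on which wild-type array was counted. Wild-type replicate 1 was the only wild-type array in the lower range of animal numbers. Leaving it out thus leaves wild type in the higher range alone. The difference was 3.18 ± 0.25 log2 without wild-type replicate 1 (limma adjusted p = 0.0706) and 1.74 ± 0.68 without wild-type replicate 2 (adjusted p = 0.869). Within the lower animal numbers it was 0.59, and within the higher ones 2.97. Fitted together with the animal number range, it was 1.78 ± 0.50 (limma adjusted p = 0.728). The mean level of 15 macrophage markers, whose groups overlapped, was 7.05, 7.33 and 7.57 in Alb/AEG-1 tumours, against 7.09, 6.71 and 6.83 in wild-type tumours. Here too wild-type replicate 1 was the highest wild-type array, and the part of these cells in the Hsd17b13 difference was not tested.

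A few other genes followed the profile of Hsd17b13 most closely over the 6 arrays, by the root mean square difference of mean-centred log2 values. Serpina12, which encodes the adipokine vaspin, had a root mean square difference of 0.61 log2. It was at 11.79, 11.79 and 10.49 in Alb/AEG-1 tumours, against 11.10, 9.28 and 8.94 in wild-type tumours, a difference of 1.58 ± 0.59 (limma adjusted p = 0.611). Dct, a melanin synthesis enzyme gene in pigment cells, followed at 0.75 and Fabp5, a fatty acid binding protein gene, at 0.81. The likeness is what chose these genes. In Dct and Fabp5, unlike in Hsd17b13, wild-type replicate 1 was the highest of all 6 arrays, at 8.81 and 11.64. The groups overlapped in Serpina12 as well, where wild-type replicate 1 lay above Alb/AEG-1 replicate 3.

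Plin2, the perilipin that coats hepatocyte droplets and is itself stabilised by stored lipid, was bright on all arrays. It was at 12.04, 11.87 and 11.66 in Alb/AEG-1 tumours, against 12.00, 11.21 and 11.48 in wild-type tumours. Wild-type replicate 1 lay among the Alb/AEG-1 arrays, and the other wild-type arrays lay below all of them. The difference was 0.30 ± 0.20 log2 (95% interval -0.17 to 0.76, limma adjusted p = 0.685). Without wild-type replicate 1, which leaves wild type in the higher range of animal numbers alone, it was 0.51 ± 0.15 (limma unadjusted p = 0.0105, adjusted p = 0.354). It was 0.12 when wild-type replicate 2 was dropped instead, and 0.14 after adjusting for the range of animal numbers. Among the lower numbers it was -0.04 and among the higher ones 0.32.

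The CIDE proteins sit where droplets touch. Cideb, the hepatocyte form, which also takes part in loading lipid onto lipoproteins, was at 10.78, 10.66 and 10.85 in Alb/AEG-1 tumours, against 10.97, 10.65 and 10.79 in wild-type tumours. The arrays of both groups lay within a narrow band, and the difference was -0.04 ± 0.11 log2 (95% interval -0.29 to 0.21, limma adjusted p = 0.918). It was -0.26 among the lower and 0.13 among the higher animal numbers. Its single probe set is of a type that may bind related transcripts.

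Cidec, also called Fsp27, which fuses droplets in fat cells and rises in fatty liver, was at 4.40, 3.79 and 3.82 in Alb/AEG-1 tumours, against 3.60, 3.98 and 3.96 in wild-type tumours. Its mean over the arrays was 3.93, below the 25th percentile of 4.27 over all probe sets. The difference was 0.16 ± 0.19 (95% interval -0.28 to 0.59, limma adjusted p = 0.808). The groups overlapped, Alb/AEG-1 replicate 1 was the highest array, and without it the difference was -0.04. Among the lower animal numbers it was 0.50, and among the higher ones -0.15.

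Of the lipolysis genes, G0s2 had the larger difference. Its product is a small protein that binds and inhibits adipose triglyceride lipase, the enzyme encoded by Pnpla2. Its levels were 10.25, 11.07 and 10.55 in Alb/AEG-1 tumours, against 9.05, 9.94 and 10.60 in wild-type tumours. The groups overlapped, since wild-type replicate 3 lay above 2 of the 3 Alb/AEG-1 arrays. The difference was 0.76 ± 0.38 log2 (95% interval -0.12 to 1.64, limma adjusted p = 0.634). It was 0.35 once wild-type replicate 1 was left out, and was 1.13 with wild-type replicate 3 left out. Among the lower animal numbers it was 1.62, and among the higher ones 0.28.

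Pnpla2, the lipase that G0s2 restrains and that takes the first fatty acid off stored triglyceride, had a difference near 0 by its brighter probe set. It was at 7.54, 7.40 and 7.79 in Alb/AEG-1 tumours, against 7.47, 7.84 and 7.53 in wild-type tumours. The difference was -0.04 ± 0.14 log2 (95% interval -0.36 to 0.29, limma adjusted p = 0.947), and 0.0005 in the lower and 0.11 in the higher range of animal numbers. The groups overlapped. The other Pnpla2 probe set lay low on the scale, at 3.41, 3.69 and 3.53 in Alb/AEG-1 and 3.61, 4.15 and 3.92 in wild-type tumours. Its difference was -0.35 ± 0.15 (95% interval -0.70 to -0.005, unadjusted p = 0.0475 and adjusted p = 0.617 by limma), so the 2 probe sets do not give the same picture.

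**Figure D2:**
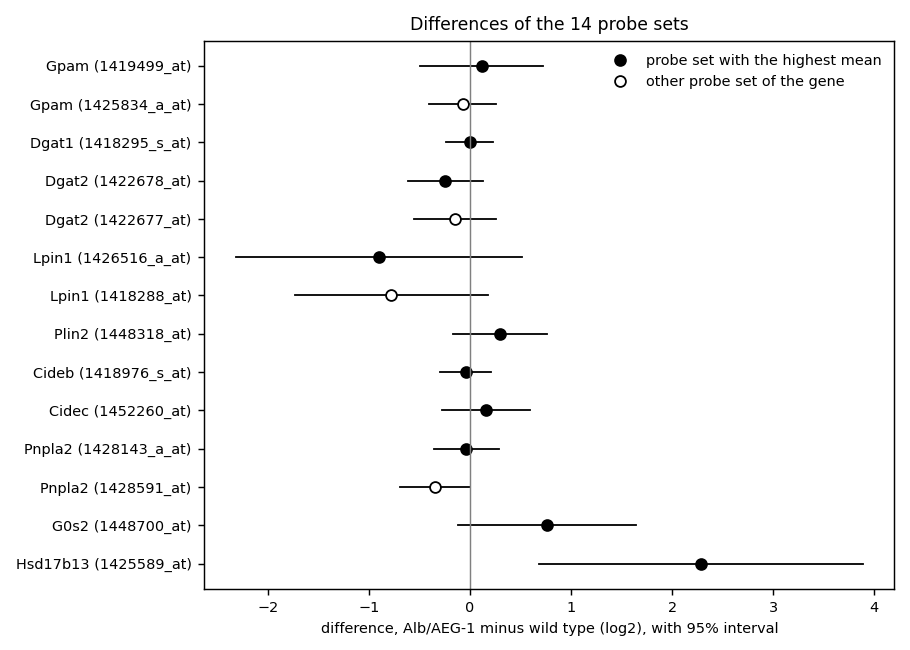
Differences (Alb/AEG-1 minus wild type, log2) of the 14 probe sets of the 10 genes with limma's 95% intervals; filled points are the probe set with the highest mean of each gene, open points the others. The intervals of Hsd17b13 (0.68 to 3.89) and of the dimmer Pnpla2 probe set (-0.70 to -0.005) lie to 1 side of 0, and the remaining 12 include it.

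Of the synthesis enzymes, Lpin1 had the largest difference and the widest spread. It encodes lipin 1, the phosphatidate phosphatase that makes diacylglycerol and that also acts as a nuclear coactivator of fatty acid oxidation. Its brighter probe set was at 8.27, 6.40 and 8.85 in Alb/AEG-1 tumours, against 8.05, 9.34 and 8.83 in wild-type tumours. Alb/AEG-1 replicate 2 was far below the other 5 arrays, among which the groups overlapped. The difference was -0.90 ± 0.61 log2 (95% interval -2.32 to 0.52, limma adjusted p = 0.685), and it was -0.18 without that array. Adjusted for the range of animal numbers it was -0.48, with -0.72 among the lower and -0.24 among the higher ones.

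The second Lpin1 probe set had the same lowest array. It was at 7.75, 6.96 and 8.73 in Alb/AEG-1 tumours, against 8.22, 8.93 and 8.63 in wild-type tumours, a difference of -0.78 ± 0.41 (95% interval -1.74 to 0.17, limma adjusted p = 0.638). Alb/AEG-1 replicate 2 was that array, and the groups overlapped. Among the lower animal numbers the difference was -0.87, and among the higher ones -0.05.

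Gpam encodes the mitochondrial acyltransferase of the first step. Its brighter probe set was at 11.26, 11.55 and 11.85 in Alb/AEG-1 tumours, against 12.00, 11.34 and 10.99 in wild-type tumours. The Alb/AEG-1 arrays all lay inside the wild-type range, and the difference was 0.11 ± 0.26 log2 (95% interval -0.49 to 0.72, limma adjusted p = 0.908). It had opposite signs in the ranges of animal numbers, -0.59 in the lower and 0.69 in the higher. The dimmer Gpam probe set was at 5.60, 5.92 and 6.04 in Alb/AEG-1 tumours, against 6.11, 5.89 and 5.77 in wild-type tumours. It differed by -0.07 ± 0.14 with overlapping groups, and it too had opposite signs, -0.36 among the lower and 0.21 among the higher numbers.

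The diacylglycerol acyltransferases make the final bond of triglyceride. Dgat2, the enzyme tied to newly made fatty acids, was at 10.86, 11.13 and 11.44 in Alb/AEG-1 tumours, against 11.20, 11.52 and 11.45 in wild-type tumours. The groups overlapped by Alb/AEG-1 replicate 3 alone, which lay above wild-type replicate 1. The difference was -0.24 ± 0.16 log2 (95% interval -0.61 to 0.13, limma adjusted p = 0.679), and it was -0.10 without Alb/AEG-1 replicate 1 and -0.39 without Alb/AEG-1 replicate 3. By animal numbers it was -0.20 in the lower and -0.04 in the higher range. The second probe set was at 9.28, 9.09 and 9.68 in Alb/AEG-1 tumours, against 9.24, 9.64 and 9.62 in wild-type tumours, a difference of -0.15 ± 0.17 with overlapping groups.

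Dgat1, which also re-esterifies fatty acids taken up from outside, had the smallest within-group SD of the 10 genes. It was at 7.57, 7.52 and 7.57 in Alb/AEG-1 tumours, against 7.57, 7.40 and 7.70 in wild-type tumours, with a difference of -0.005 ± 0.10 log2 (95% interval -0.23 to 0.22, limma adjusted p = 0.992). The Alb/AEG-1 arrays all lay inside the wild-type range, and the difference was -0.03 in the lower and 0.02 in the higher range of animal numbers. Its single probe set may bind related transcripts.

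Most of the 10 genes varied widely from array to array. The within-group SD was above that of 90% of all genes in 6 of the 10, namely Gpam, Lpin1, Plin2, Cidec, G0s2 and Hsd17b13. For Dgat1 it was above that of 35.9% of all genes, and for Cideb above that of 49.9%. The median within-group SD was 0.30 log2 over the 10 genes and 0.13 over all genes, and the median size of the difference was 0.20 and 0.10. A wide spread was not particular to these genes. In the lists described below, the median SD was 0.25 for lipolysis, 0.26 for regulators and 0.26 for macrophage markers. For the other synthesis and droplet genes it was 0.16 and 0.15. Only 1 of the 10 genes had its brightest probe set in the dimmer part of all probe sets, below the median of their means. No array was extreme throughout. Alb/AEG-1 replicate 3 was above the gene mean in 8 of 10 genes yet highest in 0, and wild-type replicate 2 was highest in 3 and lowest in 4.

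**Figure D3:**
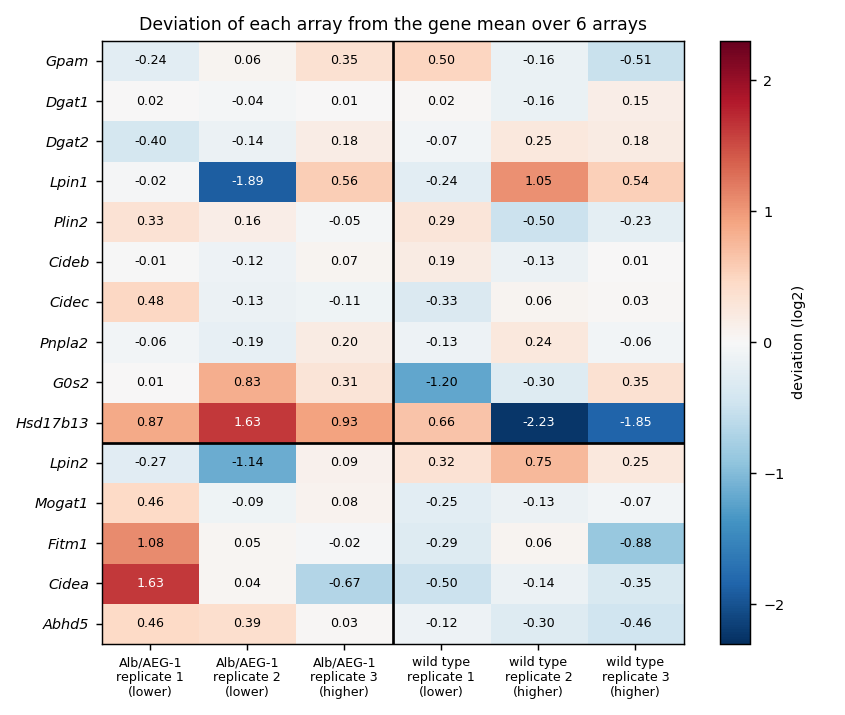
Deviation (log2) of each array from the gene's mean over the 6 arrays, for the 10 genes above the black line and 5 related genes below it; columns are the Alb/AEG-1 arrays, then the wild-type arrays, with the range of the animal number in brackets. Wild-type replicate 1 differs from the other wild-type arrays in Hsd17b13 (0.66 against -2.23 and -1.85), and Alb/AEG-1 replicate 2 is low in both Lpin1 (-1.89) and Lpin2 (-1.14).

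The other enzymes of glycerolipid synthesis gave no call either. Of 14 listed genes 9 were measured, 0 passed in either direction by limma, and at an unadjusted p below 0.05 there were 2 of the 9, both lower in Alb/AEG-1 tumours, against 8.33% of all genes in either direction. Their median difference was -0.14 log2, against -0.01 over all genes. Lpin2, the second lipin of liver, was at 8.85, 7.97 and 9.21 in Alb/AEG-1 tumours, against 9.44, 9.86 and 9.37 in wild-type tumours. All Alb/AEG-1 arrays lay below all wild-type arrays, in each of its 3 probe sets. The difference was -0.88 ± 0.30 (95% interval -1.58 to -0.18, limma adjusted p = 0.602), with -0.76 and -0.79 in the other probe sets. As in Lpin1, Alb/AEG-1 replicate 2 was the lowest array, and without it the Lpin2 difference was -0.53. It was -1.03 in the lower and -0.41 in the higher range of animal numbers. Agpat5, an acyltransferase of the second step, differed by -0.20 ± 0.07, and Mogat1, a monoacylglycerol acyltransferase raised in fatty mouse liver, by 0.30 ± 0.14, or 0.14 without Alb/AEG-1 replicate 1.

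Among other droplet genes, 12 of 14 were measured and 0 passed in either direction, with 0 at an unadjusted p below 0.05 and a median difference of 0.07 log2. Fitm1, which helps droplets form at the endoplasmic reticulum, was at 9.63, 8.60 and 8.53 in Alb/AEG-1 tumours, against 8.26, 8.61 and 7.67 in wild-type tumours. The groups overlapped, the difference was 0.74 ± 0.33 (limma adjusted p = 0.619), and it was 0.39 without Alb/AEG-1 replicate 1. Rab18, a GTPase of the droplet surface, differed by 0.13 ± 0.09, with -0.14 in its other probe set. Plin3, a perilipin of small droplets, differed by 0.25 ± 0.18. That value was 0.07 once wild-type replicate 3 was left out and 0.44 once wild-type replicate 1 was, and it was -0.05 in the lower and 0.30 in the higher range of animal numbers.

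In the lipolysis list 10 of 12 genes were measured, 0 passed, and a single gene, higher in Alb/AEG-1 tumours, had an unadjusted p below 0.05, against 8.33% of all genes. The median difference over the list was 0.02 log2. That gene was Abhd5, also called CGI-58, the protein that activates the Pnpla2 lipase. Abhd5 was at 8.28, 8.21 and 7.85 in Alb/AEG-1 tumours, against 7.70, 7.52 and 7.36 in wild-type tumours. All Alb/AEG-1 arrays lay above all wild-type arrays. The difference was 0.59 ± 0.14 log2 (95% interval 0.26 to 0.92, unadjusted p = 0.00336 and adjusted p = 0.596 by limma). Among the lower animal numbers it was 0.55, among the higher ones 0.42, and with any 1 array left out it lay between 0.51 and 0.72. The other Abhd5 probe set differed by 0.44 ± 0.16, with overlapping groups. The activator and the inhibitor of the lipase were both at higher mean levels in Alb/AEG-1 tumours, neither past the test, beside Pnpla2 differences of -0.04 and -0.35 by its 2 probe sets. Ces1d, a carboxylesterase that mobilises stored lipid for secretion, differed by -0.39 ± 0.21, by -0.23 to -0.62 with 1 array left out. Its other probe sets differed by -0.24 and -0.28. In the lower range of animal numbers the first probe set differed by -0.07 and the others by 0.12 and 0.08. In the higher range they differed by -0.34, -0.26 and -0.27. Abhd6, a monoacylglycerol lipase, differed by -0.18 ± 0.16, which was -0.03 with wild-type replicate 3 left out and -0.33 with wild-type replicate 1 left out.

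**Figure D4:**
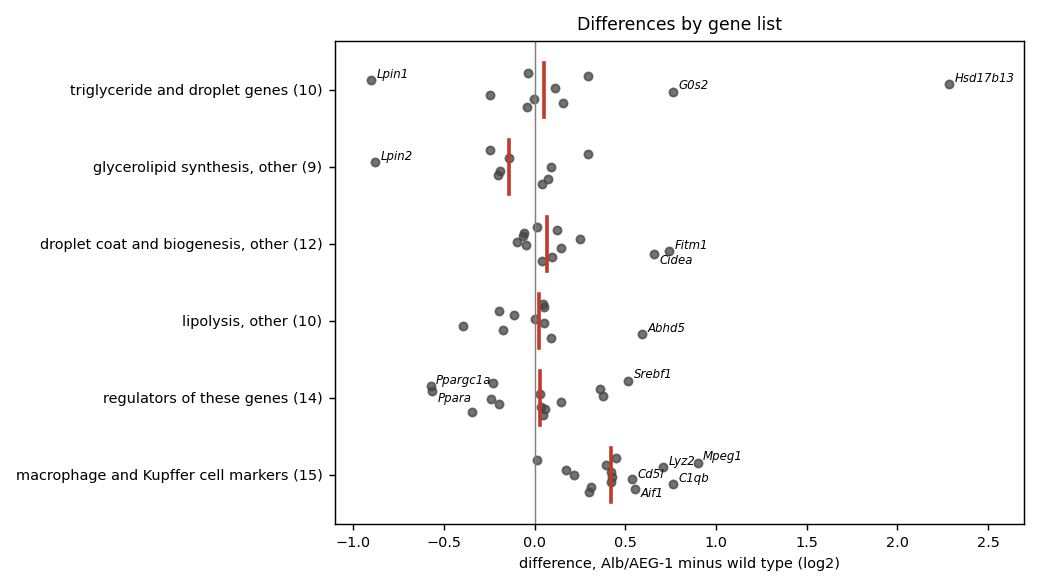
Differences (Alb/AEG-1 minus wild type, log2) of single genes in 6 lists, by the probe set with the highest mean; red bars are list medians and brackets give the number of genes measured. The median is 0.05 for the 10 genes, -0.14 for the other synthesis genes and 0.07 for the other droplet genes. It is 0.02 for the lipolysis genes, 0.03 for the regulators and 0.42 for the macrophage markers.

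Transcription factors, coactivators and other regulators of these genes also gave 0 calls among 14 measured of 16 listed, with a median difference of 0.03 log2. At an unadjusted p below 0.05 there were 2 of the 14, Srebf1 higher and Ppara lower in Alb/AEG-1 tumours, against 8.33% of all genes. Ppara, the fatty acid sensor that drives oxidation genes and Plin2, was at 9.95, 9.72 and 9.94 in Alb/AEG-1 tumours, against 10.20, 10.79 and 10.32 in wild-type tumours. Srebf1, whose product switches on lipogenic genes and Gpam, was at 10.95, 11.06 and 11.17 in Alb/AEG-1 tumours, against 10.82, 10.69 and 10.13 in wild-type tumours. The groups did not overlap in either gene. Ppara differed by -0.56 ± 0.16 (limma adjusted p = 0.596) and Srebf1 by 0.52 ± 0.18 (limma adjusted p = 0.602), which was 0.31 when wild-type replicate 3 was left out. Srebf1 differed by 0.19 in the lower and 0.76 in the higher range of animal numbers. Mlxipl, which encodes a carbohydrate response factor, differed by -0.24 ± 0.11, also without overlap. Of the 14 regulators, 1 was higher and 2 were lower in Alb/AEG-1 tumours without overlap, against 15.1% of all genes in either direction. With so few genes, this count is near that share.

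Markers of other cell types were set beside these values. The macrophage and Kupffer cell markers had 15 of 15 differences above 0, against 5925 of 12393 over all genes, with 0 past the test and a median of 0.42 log2. At an unadjusted p below 0.05 there were 5 of the 15, all higher in Alb/AEG-1 tumours, against 8.33% of all genes. The groups did not overlap in 6 of the 15, against 15.1% of all genes. By range of animal numbers the median was 0.04 in the lower and 0.81 in the higher. Macrophages can also express Plin2 and Abhd5, and their part in those differences was not tested. Of the adipocyte markers 6 of 10 were measured, with a mean level of 4.30 to 4.57 on the Alb/AEG-1 and 4.22 to 4.57 on the wild-type arrays. The adiponectin gene Adipoq, the defining marker of fat cells, lay near the bottom of the scale at 2.88, 3.18 and 2.93 in Alb/AEG-1 tumours and 2.82, 2.96 and 3.16 in wild-type tumours. RMA values have no true zero, so no marker can be given as 0.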

How the data were processed

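Whole liver tumour RNA of 6 mice was measured on Affymetrix arrays, and the authors deposited log2 expression values made with RMA, per the submitters' processing notes, which give no version. RMA normalizes arrays to a common distribution, which would hide a shift shared by most genes. The 64 control probe sets were left out, leaving 22626. Of these, 20380 had 1 gene symbol, 691 several and 1555 none, and symbols were updated through gene IDs (RefSeq table of GRCm38.p6). Where a gene had several probe sets, the brightest on average stood for it. The number of arrays limits the precision. Limma's p-values set each difference against the spread within the groups, moderated over all probe sets. In that spread, animals, tumours and arrays cannot be told apart.

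Groups came from the genotype labels, and replicates were numbered in accession order. Alb/AEG-1 was compared with wild type by limma 3.58.1 in R 4.3.3 (lmFit, eBayes, 2-sided, Benjamini-Hochberg over all probe sets, threshold 0.05), checked on simulated data. Plots used matplotlib 3.10.9. The genes named were the 10 triglyceride and droplet genes and, from each related list, the 3 with the smallest p, plus the 3 nearest patterns to the one of the 10 with the largest SD; Adipoq, Mtdh and Pparg are outside that rule, picked once their values had been seen. These genes and the lists were chosen with earlier results of these data known. Alternatives were median centring, quantile normalization, array weights, moderation with a trend or robustly, averaging the probe sets of a gene, leaving out dim probe sets, x_at and s_at probe sets or each array in turn, and a term for the animal number range. The planned choice of a pseudocount did not apply to log2 values.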

Additional observations from a re-analysis of the deposited data

How the results depend on the processing

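Across the 15 alternatives, 0 of the 10 genes and 0 genes of the related and marker lists passed an adjusted p of 0.05 by limma. Over all probe sets the count of calls, 1 as reported, was 2 with trend moderation, 2 with probe sets averaged per gene, 0 with a term for the animal number range and 0 to 1 with each array left out. At an unadjusted p below 0.05, 1823 probe sets were counted, against 764 with dim ones left out, 1019 with averaged probe sets and 1207 without wild-type replicate 2. These counts do not share a total. Averaging left 12393 genes in place of 22626 probe sets, and the dim ones left out were those below the median of probe-set means. The 10 genes gave 2 with the animal number range (Hsd17b13 and G0s2) and 1 to 3 with each array left out. Hsd17b13 was there each time, joined by Dgat2 and Lpin1 without Alb/AEG-1 replicate 3, by Plin2 without wild-type replicate 1 and by G0s2 without wild-type replicate 3. The counts over all probe sets were 1501 with the animal number range, 1937 without Alb/AEG-1 replicate 3 and 2580 without wild-type replicate 1. The differences of Hsd17b13, G0s2, Plin2, Lpin1 and Dgat2 kept their sign in all 15. Small differences changed sign: Dgat1 was 0.0081 after median centring, Pnpla2 0.0542 with the animal number range, and Rab18 -0.0094 with averaged probe sets. With each array left out, Dgat1 ran from -0.0851 to 0.0680, Cideb from -0.119 to 0.0436, Pnpla2 from -0.143 to 0.0762, Cidec from -0.0427 to 0.263, Gpam from -0.113 to 0.392, Retn from -0.178 to 0.0196 and Krt7 from -0.143 to 0.0403. The cause was not tested. Dgat1 and Cideb had no value without s_at probe sets, nor Cidec without dim ones. No paired analysis was possible because the labels give no replicate numbers that pair animals across genotypes. Cidec and the second Pnpla2 probe set lay low on the scale, which limits what their differences can show.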

Other observations

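Cidea, the CIDE protein of brown fat that also appears in fatty mouse liver, was at 6.21 on the array of Alb/AEG-1 replicate 1. It was at 4.61 and 3.90 on the other Alb/AEG-1 arrays, and at 4.08, 4.44 and 4.22 on the wild-type arrays. Its difference was 0.66 ± 0.51 log2 (limma adjusted p = 0.713) and 0.01 without that array. Alb/AEG-1 replicate 1 was the highest array in 2 of the 10 triglyceride and droplet genes, and wild-type replicate 2 in 3. Pparg, the regulator of fat cell genes, was at 6.23, 5.88 and 5.00 in Alb/AEG-1 and 4.89, 6.45 and 4.70 in wild-type tumours, and was highest on wild-type replicate 2.

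Of the remaining markers, Acvr1c and Retn of adipocytes differed by -0.33 ± 0.12 and -0.095 ± 0.12. Aif1, C1qb and Mpeg1 of macrophages differed by 0.55 ± 0.15, 0.76 ± 0.21 and 0.90 ± 0.25. C1qb differed by 0.23 in the lower and 1.13 in the higher range of animal numbers, and Lyve1 of endothelial cells by 0.13 and 1.09. Hepatocyte markers (9 of 12 measured, median -0.009) included Fgb at 0.20 ± 0.11, Cps1 at -0.11 ± 0.08 and Apob at -0.115 ± 0.10. Stellate cell and fibroblast markers (10 measured, median 0.01) included Col3a1 at 0.39 ± 0.20, Des at -0.15 ± 0.08 and Pdgfrb at 0.25 ± 0.16. Endothelial markers (8 measured, median -0.05) included Lyve1 at 0.52 ± 0.22, Tie1 at -0.23 ± 0.11 and Clec4g at -0.16 ± 0.10. Cholangiocyte markers (5 of 6 measured, median 0.03) included Cftr at 0.10 ± 0.10, Sox9 at 0.37 ± 0.38 and Krt7 at -0.07 ± 0.11. In other probe sets of these genes the differences were 0.39 and 0.40 for C1qb, 0.18 for Lyve1, 0.13 for Col3a1 and 0.08 for Pdgfrb. They were -0.11 for Des, -0.35 for Clec4g, 0.12 for Cftr and 0.20 for Sox9. Leaving out 1 array at a time gave ranges of 0.27 to 0.68 for Lyve1, 0.05 to 0.77 for Sox9, 0.17 to 0.52 for Col3a1, 0.10 to 0.42 for Pdgfrb, -0.23 to -0.08 for Clec4g, 0.05 to 0.16 for Cftr, -0.19 to -0.06 for Apob and 0.12 to 0.28 for Fgb. None of these passed limma's adjusted threshold, and all values are log2 differences, with the SE where ± is given.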
